A study of Mus musculus with 6 samples.

Results

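The Hippo pathway was followed through 10 genes in sciatic nerve of mice at postnatal day 14 (P14). They were picked by symbol for their roles in the pathway, out of 24015 gene symbols in each count table, and comprise the effectors Yap1 and Wwtr1 (which encodes TAZ), the DNA-binding partners Tead1 and Tead3, the kinases Lats1, Lats2 and Stk3, the upstream regulator Nf2, and the target genes Ctgf and Cyr61. All 10 had reads in every library and all 10 were among the 11371 genes that passed the filter on low counts. RNA-Seq was available for 3 libraries of control mice (labelled ctrl), which carry floxed Rnf40 alleles and no Cre, and 3 libraries of Rnf40ΔSC mice (labelled cko), which carry Dhh::Cre and the same floxed alleles. Each library came from a pool of 3 nerves. Dhh::Cre recombines in the Schwann cell lineage, and the RNA is that of the whole nerve, which also holds cells of other lineages. The labels give a mixed 129SvJ and C57Bl/6J background, whereas the methods of the study name C3H in place of 129SvJ. Library totals were 1317167, 1992622 and 2468765 counts in control and 2184268, 1459387 and 2186710 counts in Rnf40ΔSC nerves, and 1 read corresponds to between 0.414 and 0.823 CPM, the unit of counts scaled to library size that is used below.

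The Hippo pathway is a kinase cascade in which the MST kinases (Stk3 and Stk4) activate the LATS kinases (Lats1 and Lats2) with help of scaffolds such as the Nf2 product merlin. LATS kinases phosphorylate YAP and TAZ and thereby keep them out of the nucleus, where both would otherwise bind TEAD proteins and turn on genes such as Ctgf and Cyr61. The pathway therefore acts largely on protein location, which mRNA levels do not report. In Schwann cells YAP and TAZ are known to be needed for sorting of axons and for myelination, in part through laminin receptor genes and with TEAD1 as a partner.

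Because TEADs read a short DNA element, the promoters of the members were searched for its core letters GGAATG on both strands, over the 250 bases before each RefSeq start. The RefSeq promoter table (build GRCm38.p6) held 12 entries for 7 of the 10 members; the others are Tead1, Stk3 and Ctgf. The letters were found in 6 of these 12 entries, which belong to Yap1, Wwtr1, Tead3 and Cyr61, and in 12.6% of all 32851 promoters of the table. They were not found in the entries of Lats1, Lats2 and Nf2. The AP-1 letters TGANTCA, which often accompany TEAD elements, were found in none of the 12 entries and in 6.75% of all promoters. For Yap1, Wwtr1, Tead3 and Cyr61 an entry that holds the GGAATG letters is shown; another entry of Tead3 does not hold them. Capitals mark GGAATG or its reverse complement. Each sequence matched mm9 once on its chromosome, on the minus strand, and holds no annotated exon base: chr9:8004597-8004846 for Yap1, chr3:57379833-57380082 for Wwtr1, chr17:28487751-28488000 for Tead3 and chr3:145312950-145313199 for Cyr61.
Yap1: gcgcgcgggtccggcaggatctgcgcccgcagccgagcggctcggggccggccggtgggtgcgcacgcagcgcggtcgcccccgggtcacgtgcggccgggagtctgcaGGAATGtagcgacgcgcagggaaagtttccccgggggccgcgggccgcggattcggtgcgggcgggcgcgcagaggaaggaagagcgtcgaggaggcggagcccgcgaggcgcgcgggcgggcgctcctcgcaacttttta
Wwtr1: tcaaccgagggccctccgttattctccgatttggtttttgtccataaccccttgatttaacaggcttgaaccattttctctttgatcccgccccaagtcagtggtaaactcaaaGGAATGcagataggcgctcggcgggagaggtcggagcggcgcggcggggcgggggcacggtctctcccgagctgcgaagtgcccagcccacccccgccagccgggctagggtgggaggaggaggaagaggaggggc
Tead3: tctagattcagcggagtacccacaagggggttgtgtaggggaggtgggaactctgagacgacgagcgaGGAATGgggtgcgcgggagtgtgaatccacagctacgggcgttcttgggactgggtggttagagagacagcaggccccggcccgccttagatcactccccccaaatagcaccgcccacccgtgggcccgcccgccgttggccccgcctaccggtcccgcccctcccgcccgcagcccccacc
Cyr61: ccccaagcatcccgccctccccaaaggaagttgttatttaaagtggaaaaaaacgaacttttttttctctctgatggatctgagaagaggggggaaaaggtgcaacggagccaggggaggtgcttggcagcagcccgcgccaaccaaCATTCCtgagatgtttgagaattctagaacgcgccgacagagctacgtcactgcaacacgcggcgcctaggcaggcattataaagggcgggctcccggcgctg
The first base of the marked letters lay 141 bases before the start of Yap1, 136 before that of Wwtr1, 182 before that of Tead3 and 103 before that of Cyr61. A match of letters describes the sequence and does not show a bound site.

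As a check of the genotype labels, Rnf40 itself was at 67.5, 65.5 and 73.7 CPM in control and at 46.8, 46.9 and 48.8 CPM in Rnf40ΔSC libraries. The groups did not overlap, and Rnf40 fell with a log2 fold change of -0.54 (SE 0.14, adjusted p = 0.00242 by the quasi-likelihood test of edgeR, adjusted over all genes tested after Benjamini and Hochberg, as are all adjusted p values given here unless DESeq2 is named). The call was lost with total-count scaling (-0.27, adjusted p = 0.12; highest of the 12 alternatives that changed the fit or its libraries, lowest 0.00235). Reads outside the floxed exons and from cells without Cre are counted in this gene.

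Libraries differed in their content of other cell types, and the Rnf40ΔSC libraries differed among themselves. The 8 skeletal muscle markers summed to 3829, 2879 and 2113 CPM in control and to 85.0, 230 and 2892 CPM in Rnf40ΔSC libraries, with Myh4 the most abundant in control and Acta1 in Rnf40ΔSC nerves by their means, and none of the 8 at 0. Rnf40ΔSC replicate 3 was thus at the control level and the other Rnf40ΔSC libraries far below it. Values without Rnf40ΔSC replicate 3 are given beside those of the members. Its omission does not balance muscle content, since 7 of the 8 muscle markers were then called lower in Rnf40ΔSC nerves, so that muscle content and genotype cannot be told apart in those values.

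Markers of the nerve's own cells were lower in Rnf40ΔSC nerves in nearly all lists. Of 6 Schwann cell markers 5 fell and Egr2 rose, although Egr2 was not called without control replicate 3. Among those that fell, Gfra3 had 25, 19 and 13 reads in control and 1, 0 and 1 in Rnf40ΔSC libraries. It passed the filter on low counts only through its control reads. With at least 10 counts in every library 4 of 5 Schwann cell markers fell. The sum of the 6 markers was 1424, 1595 and 1514 CPM in control against 1048, 966 and 1052 CPM in Rnf40ΔSC nerves, led by Sox10 in control and by Egr2 in Rnf40ΔSC nerves. Of 8 fibroblast markers 7 fell, with sums of 42100, 41180 and 44470 against 32450, 31340 and 30870 CPM, led by Col3a1. Of 5 perineurial markers tested 4 fell, with sums of 875, 1016 and 998 against 556, 470.0 and 523 CPM, led by Itgb4 in control and by Cldn1 in Rnf40ΔSC nerves. Most of this drop lay in Itgb4 (465 ± 38.4 against 144 ± 20.3 CPM, SD, n = 3), and without it, a sum added after the values were seen, the others came to 454, 536 and 504 against 407, 349 and 362 CPM. Endothelial markers fell in 5 of 8, with sums of 760.0, 670 and 770 against 492, 493 and 578 CPM, led by Cdh5. The same number of 8 pericyte and smooth muscle markers fell, with sums of 1107, 803 and 907 against 592, 578 and 713 CPM, led by Pdgfrb. Of 7 macrophage markers tested 5 fell, with sums of 363, 331 and 369 against 242, 227 and 248 CPM, led by Csf1r. Of 6 adipocyte markers 3 fell, with sums of 1174, 868.4 and 1488 against 926, 848 and 674 CPM, led by Fabp4. No gene of these lists was without a count. With total-count scaling 5 of 6 Schwann cell markers fell as well, but only 4 fibroblast, 2 perineurial, 1 endothelial, 3 pericyte and smooth muscle, 2 macrophage and 2 adipocyte markers did, and 1 fibroblast marker was called higher. Fewer cells of a type and less RNA per cell cannot be told apart from such bulk RNA counts alone. By staining, the paper reports a comparable share of Sox10-positive Schwann cells in both genotypes and more macrophages in Rnf40ΔSC nerves at P14. The part of cell content in the values of the Hippo genes was not tested.

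**Figure D1:**
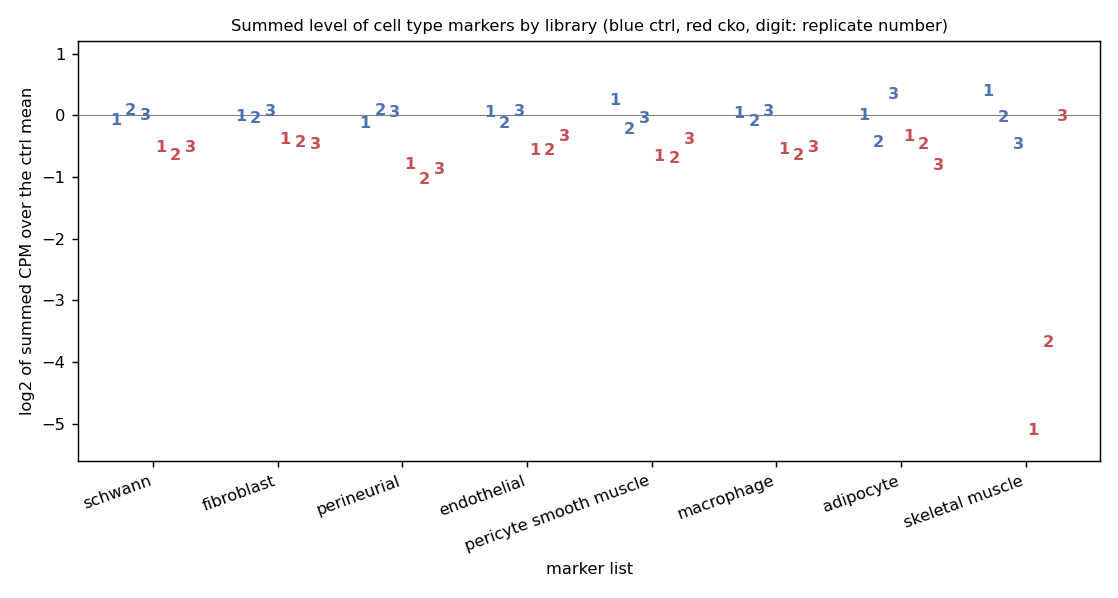
Summed CPM of each list of cell type markers in each library, as log2 of its ratio to the mean of the 3 control libraries; digits are replicate numbers, blue for control (ctrl) and red for Rnf40ΔSC (cko). Schwann cell markers were lower in all 3 Rnf40ΔSC libraries, and skeletal muscle markers were low in Rnf40ΔSC replicates 1 and 2 but not in 3.

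The question was whether the regulators and the targets of the pathway differ between genotypes. Of the 10 members 2 rose in Rnf40ΔSC nerves, Tead1 and Nf2, and 3 fell, Yap1, Tead3 and Stk3, at an adjusted p of at most 0.05. Among all 11371 genes tested 15.4% rose (1756) and 16.2% fell (1841), so that calls were common in these nerves, and 2 and 3 of 10 members are close to what these shares give. The median log2 fold change was 0.07 for the members and -0.003 for all genes tested. When calls also had to reach a log2 fold change of 0.8 in either direction and a mean scaled count (base mean) of 20, 3.73% of genes rose (424) and 5.05% fell (574); of the members only Tead3 passed, and it fell. Neither target gene was called.

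The scaling of libraries matters for these counts. The scaling factors (TMM, which takes most genes as unchanged) were 0.93, 0.89 and 0.91 in control and 1.07, 1.10 and 1.11 in Rnf40ΔSC libraries. With total-count scaling the median of all genes moved to 0.27, and 3766 genes were called higher and 880 lower, so that 81.1% of calls were higher in place of 48.8%. These are 33.1% and 7.74% of all genes tested, the background for each count with total-count scaling given here, as 15.4% and 16.2% are for the counts of lists with TMM scaling. Of the members 5 then rose (Wwtr1, Tead1, Lats1, Lats2 and Nf2) and 1 fell (Tead3). Since this scaling shifts all genes by nearly the same amount, values relative to the median of all genes stay nearly as they were, such as -0.37 for Yap1 and 0.37 for Tead1, which is no sign of their stability. Whether the CPM of both genotypes overlap is stated for TMM scaling and can change with the scaling. The share of all genes tested without overlap was not counted, so these statements have no background beside them.

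**Figure D2:**
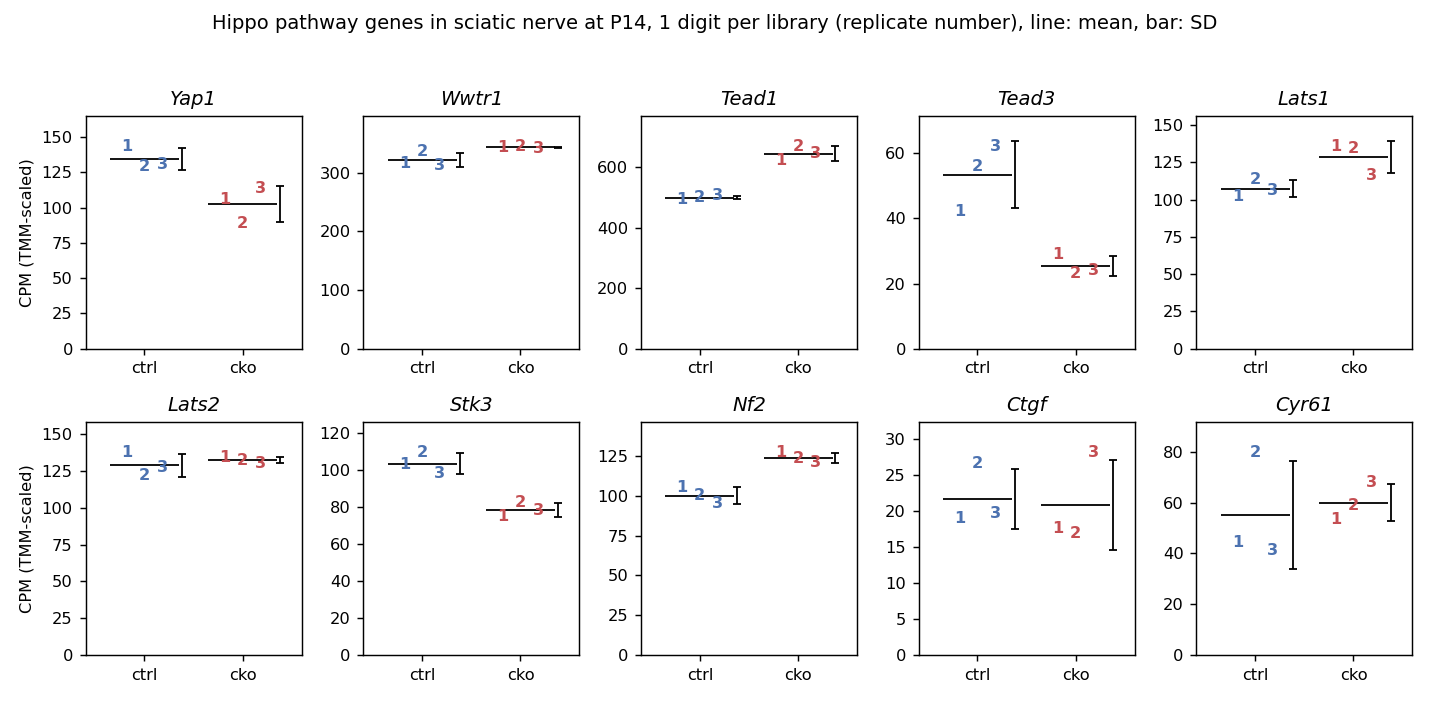
CPM (TMM-scaled) of the 10 members in each library, with replicate numbers as symbols, blue for control (ctrl) and red for Rnf40ΔSC (cko), n = 3 each; lines are means and bars SDs. With this scaling groups separate for Yap1, Tead1, Tead3, Stk3 and Nf2 and, by less, for Wwtr1 and Lats1, and overlap for Lats2, Ctgf and Cyr61. The share of all genes tested whose groups separate was not counted.

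Yap1, which encodes the coactivator YAP, lies at chr9:7931999-8004596 (mm9, minus strand). It was measured at 143, 129 and 131 CPM in control and at 106, 88.8 and 113 CPM in Rnf40ΔSC libraries. All Rnf40ΔSC libraries were below all control libraries, and replicate 2 was the lowest. Yap1 fell to 0.771 times the control level (95% confidence interval 0.66 to 0.90), a log2 fold change of -0.38 (SE 0.11, adjusted p = 0.00782). The call was lost with total-count scaling (-0.11, adjusted p = 0.473), in DESeq2 (-0.37, adjusted p = 0.059) and without Rnf40ΔSC replicate 2 (-0.29, adjusted p = 0.0598), the lowest adjusted p over alternatives being 0.00233. Without Rnf40ΔSC replicate 3 it was -0.44. An antisense gene shares 116 exon bases of Yap1 (1.25%), and whether counting used strand is not stated.

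Wwtr1, which encodes the YAP paralogue TAZ, lies at chr3:57259571-57379832 (minus strand). Its levels were 316, 335 and 312 CPM in control and 342, 344 and 342 CPM in Rnf40ΔSC libraries. The Rnf40ΔSC libraries were close to each other and just above the highest control library. The log2 fold change was 0.09 (95% confidence interval -0.09 to 0.28, adjusted p = 0.465), which did not pass the test, and 0.11 without Rnf40ΔSC replicate 3. It was called higher with total-count scaling (0.36, adjusted p = 0.00141; the highest over alternatives was 0.688).

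The balance of both effectors can be read within a library, where no scaling enters. For each 100 reads of Wwtr1 there were 45.3, 38.6 and 41.9 reads of Yap1 in control and 30.9, 25.8 and 33.2 in Rnf40ΔSC libraries (means 41.9 ± 3.35 and 29.9 ± 3.79, SD, n = 3). The groups did not overlap. Such ratios, like the shares of the TEAD genes below, were chosen after the values were seen and are given without a test; an exact permutation test of 3 against 3 libraries could not give a two-sided p below 0.1. Per kilobase of exon Wwtr1 was the more abundant of the pair, at 67.2 ± 2.54 against 14.5 ± 0.826 CPM per kb in control and at 71.7 ± 0.291 against 11.1 ± 1.36 CPM per kb in Rnf40ΔSC nerves (SD, n = 3).

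Tead1, a TEAD transcription factor, lies at chr7:119822832-120050319 (plus strand). It was measured at 495, 498 and 506 CPM in control and at 621, 669 and 645 CPM in Rnf40ΔSC libraries. Every Rnf40ΔSC library lay above every control library. Tead1 rose to 1.29 times the control level (95% confidence interval 1.14 to 1.45), a log2 fold change of 0.37 (SE 0.08, adjusted p = 0.000877). The call held under all 12 alternatives, with values from 0.34 to 0.64 (0.38 without Rnf40ΔSC replicate 3), although the rise was below the added fold limit.

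Tead3 lies at chr17:28468616-28487750 (minus strand) and moved the other way. Its levels were 42.0, 55.9 and 62.0 CPM in control and 28.8, 23.1 and 24.0 CPM in Rnf40ΔSC libraries. Control replicate 1 was the lowest control library and still above all Rnf40ΔSC libraries. Tead3 fell to 0.469 times the control level (95% confidence interval 0.367 to 0.601), a log2 fold change of -1.09 (SE 0.18, adjusted p = 6.06e-06). This was called under all 12 alternatives, from -1.22 to -0.82 (-1.04 without Rnf40ΔSC replicate 3).

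The other TEAD genes were lower as well. Tead2 had 30, 57 and 48 reads in control and 31, 24 and 49 reads in Rnf40ΔSC libraries, and fell with a log2 fold change of -0.67 (SE 0.23, adjusted p = 0.0229). This call was lost with total-count scaling (-0.40, adjusted p = 0.17), in DESeq2 (-0.67, adjusted p = 0.147) and without control replicate 2 (-0.48, adjusted p = 0.188), Rnf40ΔSC replicate 1 (-0.52, adjusted p = 0.134) or Rnf40ΔSC replicate 2 (-0.62, adjusted p = 0.0611); the lowest over alternatives was 0.00567. Tead4 had 9, 28 and 38 reads in control and 2, 6 and 10 in Rnf40ΔSC libraries, so that its log2 fold change of -2.27 (SE 0.42, adjusted p = 5.51e-05) rests on few reads. It passed the filter on low counts only through its control reads and was not tested with at least 10 counts in every library. Its calls under the 11 alternatives that tested it are therefore no independent support.

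As a share of the length-scaled reads of Tead1 to Tead4, Tead1 made up 72.3%, 64.9% and 65.8% in control and 85.2%, 86.2% and 84.0% in Rnf40ΔSC libraries. Tead3 made up 15.7%, 18.6% and 20.6% against 10.1%, 7.62% and 7.99%. The shares of both genes did not overlap between genotypes. The means for Tead2 were 8.49 ± 1.70% and 5.13 ± 1.07%, and those for Tead4 were 5.57 ± 1.91% and 1.19 ± 0.715% (SD, n = 3). The sum of all 4 genes was 60.9, 68.4 and 68.5 CPM per kb in control and 64.9, 69.0 and 68.3 CPM per kb in Rnf40ΔSC libraries, and so overlapped between genotypes.

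**Figure D3:**
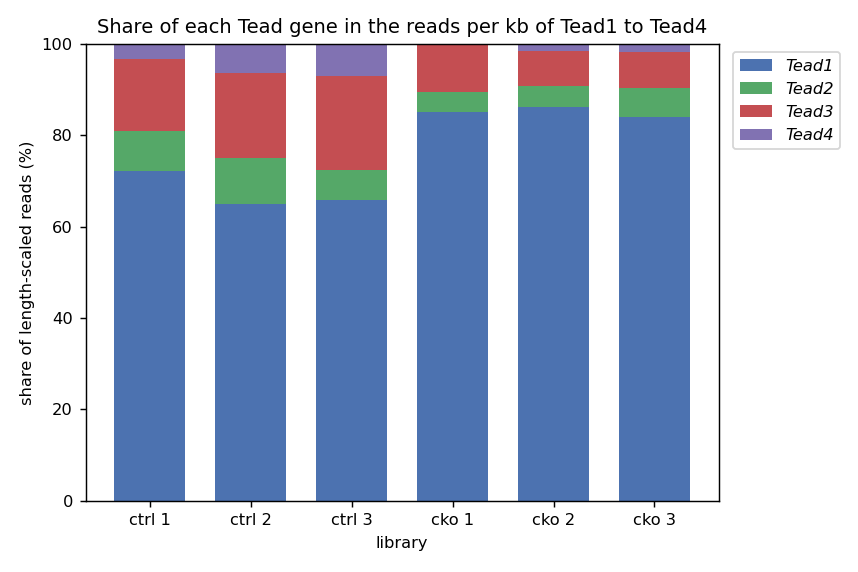
Share of Tead1, Tead2, Tead3 and Tead4 in their summed reads per kb of exon, in percent, for each of 3 control (ctrl) and 3 Rnf40ΔSC (cko) libraries. Tead1 held 64.9% to 72.3% in control and 84.0% to 86.2% in Rnf40ΔSC libraries.

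Among the VGLL cofactors, which also bind TEADs, Vgll3 rose with a log2 fold change of 0.30 (SE 0.11, adjusted p = 0.0328), a call that was lost in DESeq2 (0.31, adjusted p = 0.137) and without control replicate 1 (0.27, adjusted p = 0.109), control replicate 3 (0.24, adjusted p = 0.19), Rnf40ΔSC replicate 1 (0.26, adjusted p = 0.122) or Rnf40ΔSC replicate 2 (0.30, adjusted p = 0.0517). With total-count scaling it was at 0.57 (adjusted p = 7.01e-05, the lowest over alternatives). Vgll4 was at 0.33 (SE 0.21, adjusted p = 0.256), and was called higher with total-count scaling (0.60, adjusted p = 0.0235; highest over alternatives 0.588). Vgll1 had no read in any library. Of the 10 effectors, TEADs and VGLL genes listed 8 were tested, of which 2 rose and 4 fell, with a median log2 fold change of -0.14. With at least 10 counts in every library, where Tead4 was not tested, 2 of 7 rose and 3 fell, and the median was 0.11. DESeq2 called 1 of the 8 higher and 2 lower, and total-count scaling 4 higher and 2 lower.

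Of the kinases, Stk3 (MST2, chr15:34805251-35085561, minus strand) was measured at 103, 110 and 98.2 CPM in control and at 75.1, 82.5 and 78.2 CPM in Rnf40ΔSC libraries. All Rnf40ΔSC libraries lay below the control libraries. Stk3 fell to 0.758 times the control level (95% confidence interval 0.645 to 0.891), a log2 fold change of -0.40 (SE 0.11, adjusted p = 0.00675). The call was lost with total-count scaling (-0.13, adjusted p = 0.392) and in DESeq2 (-0.39, adjusted p = 0.0641), the lowest over alternatives being 0.0077; without Rnf40ΔSC replicate 3 it was -0.39. Its paralogue Stk4 (MST1) was at -0.06 (SE 0.14, adjusted p = 0.782), and its sign turned with total-count scaling (0.21) and without control replicate 3 (0.09). For each 100 reads of Stk4 there were 181, 185 and 130 reads of Stk3 in control and 127, 122 and 129 in Rnf40ΔSC libraries, where control replicate 3 came close to the Rnf40ΔSC libraries.

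Lats1 (chr10:7401007-7436256, plus strand) and Lats2 (chr14:58260914-58377225, minus strand) encode the kinases that phosphorylate YAP and TAZ. Lats1 was at 102, 114 and 106 CPM in control and at 136, 134 and 116 CPM in Rnf40ΔSC libraries. Its groups did not overlap, with Rnf40ΔSC replicate 3 nearest to control. The log2 fold change of 0.26 (95% confidence interval 0.04 to 0.48, adjusted p = 0.0657) did not pass the adjusted test. It was called with total-count scaling (0.53, adjusted p = 0.000169), with at least 10 counts in every library (0.27, adjusted p = 0.0499) and without Rnf40ΔSC replicate 3 (0.34, adjusted p = 0.0148); the highest over alternatives was 0.216. Lats2, which is also a YAP and TAZ target, was at 138, 122 and 127 CPM in control and at 134, 132 and 130.3 CPM in Rnf40ΔSC libraries. These overlapped, and the log2 fold change was 0.04 (95% confidence interval -0.17 to 0.25, adjusted p = 0.797) and 0.06 without Rnf40ΔSC replicate 3. It was called higher with total-count scaling (0.31, adjusted p = 0.0167; highest over alternatives 0.995). Lats2 shares 332 exon bases (4.55%) with Xpo4 on the same strand, so that its count is uncertain to that extent. For each 100 reads of Lats2 there were 74.3, 93.1 and 83.5 reads of Lats1 in control and 101, 102 and 89.2 in Rnf40ΔSC libraries, which overlapped.

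Of 19 kinases and kinase cofactors of the pathway 17 were tested, of which 3 rose and 2 fell, with a median log2 fold change of 0.04. The genes that rose were Tnik (1.11, SE 0.20, adjusted p = 2.82e-05), Map4k4 (0.60, SE 0.08, adjusted p = 6.3e-07) and Mink1 (0.27, SE 0.10, adjusted p = 0.0407), which encode related kinases of the MAP4K group that can activate LATS in parallel to MST. Stk3 and Mob1a fell, the latter by 0.79 on the log2 scale (SE 0.21, adjusted p = 0.00386); Mob1a encodes a coactivator of LATS. Tnik and Map4k4 were called under all 12 alternatives. Mink1 lost its call in DESeq2 (0.28, adjusted p = 0.122) and without control replicate 1 (0.23, adjusted p = 0.143), 2 (0.28, adjusted p = 0.0831) or 3 (0.29, adjusted p = 0.0898) at a fold change of similar size. Without Rnf40ΔSC replicate 3 its log2 fold change was smaller, at 0.16 (adjusted p = 0.22; lowest over alternatives 9.11e-05). Mob1a was lost with total-count scaling (-0.52, adjusted p = 0.0515; lowest over alternatives 0.00126). With that scaling 9 of the 17 kinase genes were called higher, as were 33.1% of all genes.

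Nf2 encodes merlin, the scaffold that brings LATS to the membrane and that is lost in schwannoma, and lies at chr11:4665848-4749539 (minus strand). It was measured at 105, 100 and 95.1 CPM in control and at 127, 124 and 121 CPM in Rnf40ΔSC libraries. All Rnf40ΔSC libraries were above all control libraries. Nf2 rose to 1.24 times the control level (95% confidence interval 1.07 to 1.44), a log2 fold change of 0.31 (SE 0.11, adjusted p = 0.0227) and 0.34 without Rnf40ΔSC replicate 3. The call was lost in DESeq2 (0.32, adjusted p = 0.106) and without control replicate 2 (0.31, adjusted p = 0.0601), control replicate 3 (0.27, adjusted p = 0.118) or Rnf40ΔSC replicate 1 (0.31, adjusted p = 0.0674); the lowest over alternatives was 4.9e-05.

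Of 24 upstream regulators listed 18 were tested, of which 3 rose and 2 fell, with a median log2 fold change of -0.02. Besides Nf2 these were Ptpn14 (0.80, SE 0.10, adjusted p = 1.14e-07), which encodes a phosphatase that binds YAP, and Tjp1 (0.47, SE 0.09, adjusted p = 0.000122), which encodes the junction protein ZO-1. Both were called under all 12 alternatives. Fat4, an atypical cadherin gene, fell by 0.47 on the log2 scale (SE 0.14, adjusted p = 0.00914), and Amotl2, a YAP-binding angiomotin gene, fell by 0.28 (SE 0.11, adjusted p = 0.0443). The call of Fat4 was lost with total-count scaling (-0.20), in DESeq2 (-0.46) and without Rnf40ΔSC replicate 1 (-0.40), and that of Amotl2 under 8 of 12 alternatives. With total-count scaling the fall of Amotl2 was absent (-0.013, adjusted p = 0.935). The others were no filter (-0.27), at least 10 counts in every library (-0.27), DESeq2 (-0.27) and the omission of control replicate 2 (-0.27), control replicate 3 (-0.25), Rnf40ΔSC replicate 2 (-0.26) or Rnf40ΔSC replicate 3 (-0.21). With total-count scaling 8 upstream genes of 18 were called higher, beside 33.1% of all genes.

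**Figure D4:**
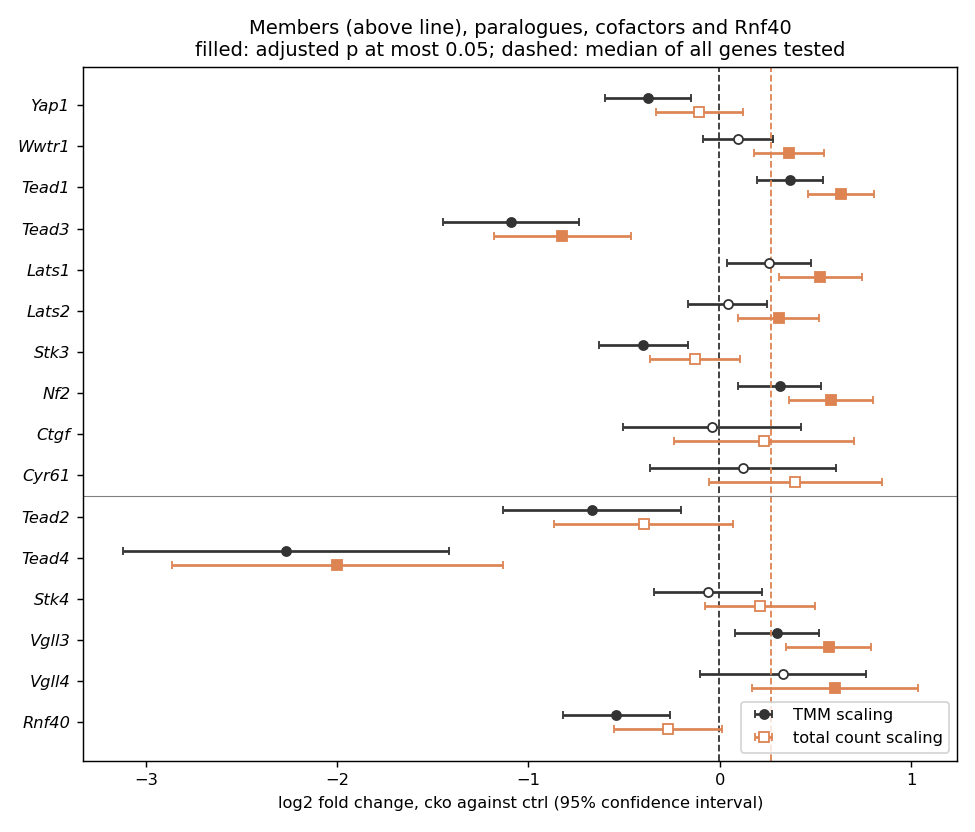
Log2 fold change of Rnf40ΔSC (cko) against control (ctrl) for the 10 members, 5 paralogues and cofactors and Rnf40, with 95% confidence intervals, under TMM scaling (black circles) and total-count scaling (orange squares); filled symbols have an adjusted p of at most 0.05 and dashed lines are the medians of all genes tested. Tead1 and Nf2 are called higher and Tead3 lower under both scalings, and Yap1 and Stk3 are called lower under TMM scaling only.

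The targets Ctgf and Cyr61 encode secreted matricellular proteins and are the genes most often used to read YAP and TAZ activity. Ctgf (chr10:24315248-24318489, plus strand) had 23, 47 and 44 reads in control and 41, 27 and 68 reads in Rnf40ΔSC libraries, which is 18.9, 26.6 and 19.6 CPM against 17.6, 16.9 and 28.1 CPM. Control replicate 2 and Rnf40ΔSC replicate 3 were high and the groups overlapped. The log2 fold change was -0.04 (SE 0.23, adjusted p = 0.915), with a 95% confidence interval of -0.51 to 0.43. Its sign turned with total-count scaling (0.23, adjusted p = 0.449) and without control replicate 2 (0.13, adjusted p = 0.773), Rnf40ΔSC replicate 1 (0.10, adjusted p = 0.817) or Rnf40ΔSC replicate 2 (0.08, adjusted p = 0.854), and it was -0.33 without Rnf40ΔSC replicate 3 (adjusted p = 0.334; range over alternatives 0.334 to 0.961). Ctgf shares 570 exon bases (22.9%) with an antisense gene.

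Cyr61 (chr3:145309935-145312949, minus strand) was measured at 44.5, 79.7 and 41.1 CPM in control and at 53.2, 58.8 and 67.9 CPM in Rnf40ΔSC libraries. Control replicate 2 was the highest of all 6 libraries and the other control libraries were the lowest. The log2 fold change was 0.12 (SE 0.22, adjusted p = 0.726), with a 95% confidence interval of -0.37 to 0.61. A single control library decided its call: without control replicate 2 Cyr61 was higher (0.50, adjusted p = 0.036), and without control replicate 3 its sign turned (-0.08, adjusted p = 0.801), the range over alternatives being 0.036 to 0.973. It was 0.02 without Rnf40ΔSC replicate 3. For each 100 reads of Ctgf there were 235, 300 and 209 reads of Cyr61 in control and 302, 348 and 241 in Rnf40ΔSC libraries, which overlapped.

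To set targets against regulators, the mean log2 CPM of the 8 regulators was subtracted from that of the 2 targets in each library. The regulators pool opposite roles: Yap1, Wwtr1, Tead1 and Tead3 turn targets on, and Lats1, Lats2, Stk3 and Nf2 act against YAP and TAZ. Their mean therefore predicts no direction for the targets, and the difference is a description only. This gave -2.22, -1.62 and -2.28 in control and -2.11, -2.02 and -1.56 in Rnf40ΔSC libraries, with means of -2.04 ± 0.36 and -1.89 ± 0.29 (SD, n = 3). The groups overlapped and their difference of 0.15 was below the pooled SD of 0.33. The regulators alone varied less, at 7.14, 7.18 and 7.16 in control and 7.10, 7.05 and 7.05 in Rnf40ΔSC libraries. With TMM scaling they were lower in every Rnf40ΔSC library than in any control library, which adds to the difference. This order of the regulators depends on the scaling. With total-count scaling 5 members, all of them regulators, were called higher and 1 lower. The targets ranged from 4.88 to 5.56 in control. Without control replicate 2 the difference was 0.36, and without Rnf40ΔSC replicate 3 it was -0.02. With the median of regulators in place of their mean, the sign of the difference turned as well (-0.04).

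Per kilobase of exon, the order of the members in control nerves was Wwtr1 (67.2 ± 2.54 CPM per kb), Tead1 (44.5 ± 0.515), Stk3 (32.0 ± 1.77), Cyr61 (27.2 ± 10.5), Lats2 (17.7 ± 1.08), Nf2 (14.7 ± 0.756), Lats1 (14.7 ± 0.796), Yap1 (14.5 ± 0.826), Tead3 (12.1 ± 2.34) and Ctgf (8.72 ± 1.69; SD, n = 3). Stk3 and Lats2 both lay within the spread of Cyr61, and Nf2, Lats1 and Yap1 were within their spread of each other. In Rnf40ΔSC nerves Cyr61 (29.6 ± 3.64 CPM per kb) stood above Stk3 (24.3 ± 1.14), Nf2 (18.1 ± 0.459) and Lats2 (18.1 ± 0.279) were level, Yap1 was at 11.1 ± 1.36 and Tead3 (5.75 ± 0.690) was below Ctgf (8.38 ± 2.53).

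Of 22 genes known as YAP and TAZ targets 19 were tested, of which 3 rose and 4 fell, near the 15.4% and 16.2% of all genes, with a median log2 fold change of 4.65e-05. The genes that rose were Ptpn14 (0.80), Asap1 (0.58, SE 0.11, adjusted p = 9.5e-05) and Crim1 (0.42, SE 0.13, adjusted p = 0.00876). Ccdc80 (-0.62, SE 0.10, adjusted p = 6.81e-06), Dock5 (-0.60, SE 0.20, adjusted p = 0.0186), Axl (-0.56, SE 0.10, adjusted p = 1.58e-05) and Amotl2 fell. Axl encodes a receptor tyrosine kinase, and Ccdc80 a secreted matrix protein. The calls of Asap1, Ccdc80 and Axl held under all 12 alternatives. That of Crim1 was lost in DESeq2 (0.43) and without control replicate 2 (0.39) or 3 (0.31), and that of Dock5 was lost under 6 of 12, with total-count scaling (-0.33, adjusted p = 0.187), in DESeq2 (-0.58) and on omission of control replicate 2 (-0.54), control replicate 3 (-0.54), Rnf40ΔSC replicate 1 (-0.59) or Rnf40ΔSC replicate 3 (-0.47). With total-count scaling 5 of these 19 targets were called higher and 2 lower, beside 33.1% and 7.74% of all genes.

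In the CCN family, to which Ctgf and Cyr61 belong, 5 of 6 genes were tested. Nov (CCN3) fell with a log2 fold change of -0.45 (SE 0.10, adjusted p = 0.000391) and Wisp1 (CCN4) with -0.65 (SE 0.13, adjusted p = 0.000161). The call of Nov was lost with total-count scaling (-0.19, adjusted p = 0.125; lowest over alternatives 0.000178), and that of Wisp1 held under all 12 alternatives. Wisp3 (CCN6) was nearly absent from control libraries, with 2, 0 and 0 reads, and had 11, 12 and 13 reads in Rnf40ΔSC libraries. Over each genotype this is 2 against 36 reads, a ratio of rates of 14.8 (exact 95% confidence interval 3.82 to 127, counting error only). Wisp3 was called higher in edgeR (adjusted p = 0.000247). Omission of 1 library moved its log2 fold change between 2.96 and 6.58, the latter without control replicate 1, which held both control reads. Wisp3 passed the filter on low counts only through its Rnf40ΔSC reads. With at least 10 counts in every library it was not tested, so its call adds nothing to the read counts.

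Laminin receptor genes, some of which are known YAP and TAZ targets in Schwann cells, were all tested, and of 6 genes 1 rose and 3 fell. Itga6 rose with a log2 fold change of 0.50 (SE 0.08, adjusted p = 4.36e-06), whereas Itgb4, whose product pairs with that of Itga6, fell by 1.69 (SE 0.10, adjusted p = 4.77e-16). Itga3 fell by 1.03 (SE 0.25, adjusted p = 0.00142) and the dystroglycan gene Dag1 by 0.23 (SE 0.07, adjusted p = 0.0152). The calls of Itga6, Itgb4 and Itga3 held under all 12 alternatives. Dag1 turned its sign with total-count scaling (0.04) and lost its call without control replicate 2 (-0.21), control replicate 3 (-0.23), Rnf40ΔSC replicate 1 (-0.20) or Rnf40ΔSC replicate 2 (-0.19). Itgb4 is also a perineurial marker, and the source of its reads was not tested.

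Immediate early genes respond quickly to stimuli, as Ctgf and Cyr61 do. Of 20 listed 18 were tested, of which 2 rose and 2 fell, where 15.4% and 16.2% of all genes did, with a median log2 fold change of 0.05. Egr1 (0.68, SE 0.17, adjusted p = 0.00211) and Egr3 (0.46, SE 0.17, adjusted p = 0.0382) rose, and Klf6 (-0.45, SE 0.10, adjusted p = 0.000531) and Klf4 (-0.49, SE 0.18, adjusted p = 0.0367) fell. Egr1 was called under all 12 alternatives. The call of Klf6 was lost with total-count scaling (-0.18, adjusted p = 0.135; lowest over alternatives 0.000142). Egr3 was lost in DESeq2 (0.47) and without control replicate 2 (0.50), control replicate 3 (0.36), Rnf40ΔSC replicate 1 (0.52) or Rnf40ΔSC replicate 2 (0.36), and Klf4 with total-count scaling, where its value was much smaller (-0.22, adjusted p = 0.357), in DESeq2 (-0.50) and without control replicate 1 (-0.39), control replicate 2 (-0.41), Rnf40ΔSC replicate 1 (-0.44) or Rnf40ΔSC replicate 2 (-0.38). With total-count scaling 7 immediate early genes of 18 were called higher, beside 33.1% of all genes, and Klf6 and Klf4 were not called.

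**Figure D5:**
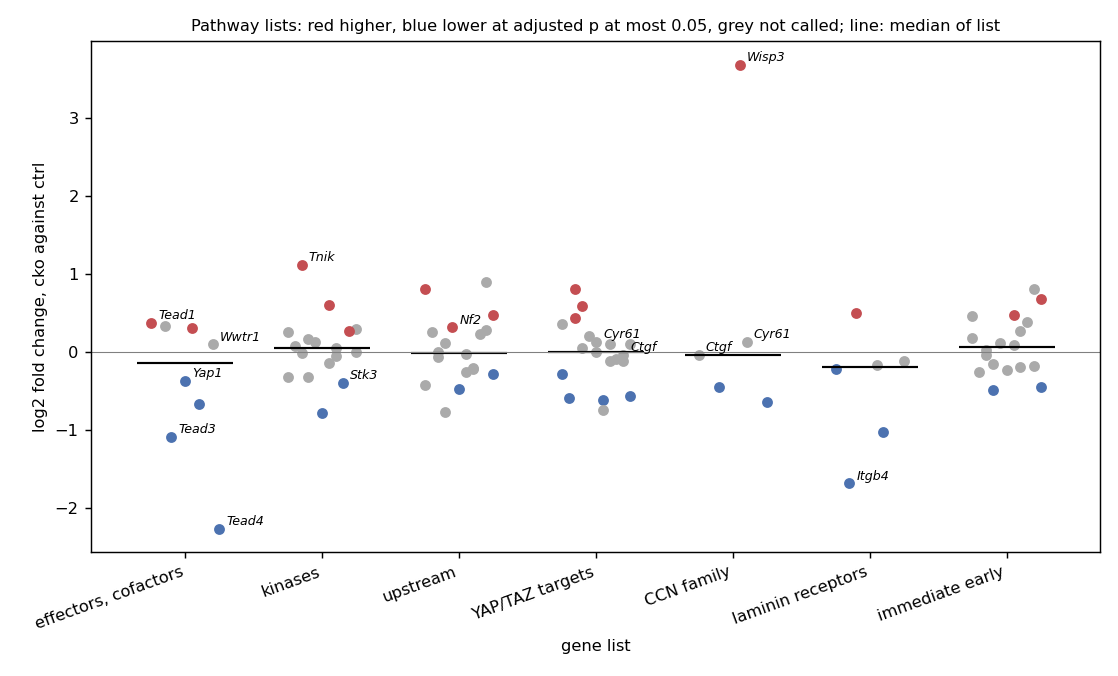
Log2 fold change of Rnf40ΔSC (cko) against control (ctrl) for each tested gene of 7 lists, red where higher and blue where lower at an adjusted p of at most 0.05, grey where not called; black lines are list medians, and the fitted value of Wisp3 depends on the prior count because control libraries held 2 reads. List medians lie between -0.20 and 0.05.

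Among 9336 genes that reached a base mean of 20, those with the profile over the 6 libraries most like that of Yap1, by root mean square difference of centred log2 CPM, were Tbc1d2b (0.029), Abca9 (0.039) and Taf9b (0.042), where the profile of Yap1 itself had a root mean square of 0.227. Nearest to Wwtr1 (0.057) were Arih1 (0.030) and Ubr3 (0.033). Nearest to Ctgf (0.272) were Pim3 (0.067), Depdc5 (0.090) and Lrfn4 (0.092), and to Cyr61 (0.325) Tmem234 (0.078), Phospho2 (0.084) and Rabggta (0.098). None of these 4 members was among the nearest 3 genes of another.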

How the data were processed

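RNA-Seq libraries were grouped by genotype and replicate number from their labels. The authors aligned reads to mm9, used HTSeq to count unique alignments, and the deposited values are these raw counts, not normalized; the submitters' processing notes name Bowtie2 2.1.0 and both mm9 and mm10. Gene annotation and strand setting are not given in the sources used here, and labels and methods name different library kits. The test was that of edgeR 4.0.16 under R 4.3.3 (robust quasi-likelihood test, TMM scaling, filterByExpr, genotype as the only term, two-sided, Benjamini-Hochberg adjustment over 11371 genes), with an adjusted p of 0.05 as the limit. Log2 CPM used a prior count of 2. CPM per kb used merged exons of GENCODE vM1 (mm9), which also gave coordinates and shared exon bases. Alternatives were RLE and total-count scaling, DESeq2 1.42.0 without a fold-change prior, no filter, at least 10 counts in every library, a block for replicate number, omission of each library, stricter limits, and for the target difference the median of regulators or Lats2 left out. Library totals of 1317167 to 2468765 counts limit genes with few reads. A check for duplicate libraries within each genotype (counts of a pair against sampling noise) found none. Members and lists were chosen with earlier results of these data known. Named genes are the members, Rnf40, paralogues and cofactors, up to 3 highest and 3 lowest called genes of each list, the 3 nearest profiles, and each marker list's most abundant gene; 2 Schwann cell markers and a gene of the nearest profiles are not reported here.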

Additional observations from a re-analysis of the deposited data

How the results depend on the processing

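Of 194 comparisons of main results with alternatives 159 stayed on the same side of the threshold with the same sign or, for counts, within 1.5 times and, for values without a test, within 1 SD; so did 353 of 414 for other values (53 lost a call, 1 gained one, 3 reversed and 4 marker sums moved without their most abundant gene, an alternative added after the data were seen). Tead1 (0.34 to 0.64) and Tead3 (-1.22 to -0.82) kept sign and call in each refit, but Tead1 did not reach the stricter limits. The difference of targets and regulators (-0.04 to 0.36) moved by less than 1 SD, but its sign turned under 2 of 10 alternatives, with the median of regulators (-0.04) and without Rnf40ΔSC replicate 3 (-0.02). With total-count scaling 3766 genes were higher and 880 lower, 5 members higher and 1 lower; Yap1 (-0.11), Stk3 (-0.13) and Rnf40 (-0.27) lost their calls, Wwtr1 (0.36), Lats1 (0.53) and Lats2 (0.31) gained one, and Ctgf (0.23), Stk4 (0.21) and Dag1 (0.041) changed sign. DESeq2 called 1094 genes higher and 1170 lower, 1 member higher and 1 lower, and not Yap1 (-0.37), Stk3 (-0.39) or Nf2 (0.32). The stricter limits left 424 and 574 genes, 0 members higher and 1 lower. At least 10 counts in every library gave Lats1 a call (0.27). The cause of these shifts was not tested, except that total-count scaling moves all genes by a common factor.
With each library left out, members called higher were 1 to 3 and lower 2 to 3. Ranges were -0.44 to -0.29 for Yap1, 0.23 to 0.34 for Lats1, 0.27 to 0.34 for Nf2, -0.33 to 0.13 for Ctgf, -0.084 to 0.50 for Cyr61 and -0.13 to 0.093 for Stk4. The cause was not tested. No pairing by replicate number was seen: deviations of same-numbered libraries correlated at -0.09, -0.02 and -0.06 across genes, and those of differently numbered ones at up to 0.10. With 3 libraries per genotype, centred on their own mean, these correlations cannot exclude a pairing. With the replicate block 1727 genes were higher and 1837 lower, with 2 members higher and 3 lower as without it. Depth limits genes with few reads, among them Wisp3 (0 to 13 reads), Tead4 (2 to 38), Tead2 (24 to 57) and Ctgf (23 to 68).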
